A study of Mus musculus with 6 samples.

Results

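Retinoid metabolism and retinoic acid signaling were followed through 9 genes: the retinaldehyde dehydrogenases Aldh1a1 and Aldh1a3, their relative Aldh1a7, the retinol carrier Rbp4 and its receptor Stra6, the oxidoreductases Rdh10 and Dhrs3, the retinoic acid binding protein Crabp2 and the receptor Rarg. They were chosen by gene symbol, which took 15 of 45281 probes and 9 of 19057 named genes on the array. The cells were differentiated 3T3-L1 adipocytes, a mouse line that turns from fibroblast-like preadipocytes into fat cells in culture. They were kept in stripped serum and then given 500 nM dexamethasone (DEX), a synthetic glucocorticoid, or the ethanol vehicle (0 nM DEX) for 6 hours, with 3 arrays per group. Both groups had met DEX before, as a component of the cocktail that differentiated them, and had then been cultured without it. The paper states that treatments were done in triplicate. Neither it nor the labels say whether the 3 samples of a group came from separate cultures. Every p-value therefore rests on a spread between samples that may be technical.

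Retinol, or vitamin A, travels in blood bound to RBP4, which liver and fat secrete, and STRA6 lets it into cells. RDH10 oxidizes retinol to retinaldehyde, DHRS3 reduces it back, and the ALDH1A enzymes oxidize retinaldehyde irreversibly to retinoic acid. CRABP2 carries retinoic acid to the retinoic acid receptors, which bind DNA together with retinoid X receptors, and CYP26 enzymes break it down. In white fat Aldh1a1 is known as a main retinaldehyde dehydrogenase, and retinaldehyde and retinoic acid are both known to act on fat cell differentiation and lipid handling.

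Aldh1a1 was the 1 member that passed the test, as higher in DEX, and 6 of the 9 genes gave no signal that could be tested. The probe of Aldh1a7, the gene next to Aldh1a1, was bright in both groups and did not pass the test. Of the 3 Rarg probes 1 was tested, and it did not pass either. Rbp4, Stra6, Rdh10, Dhrs3, Crabp2 and Aldh1a3 stayed at or near background on all arrays.

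Aldh1a1 and Aldh1a7 are neighbours on chromosome 19 with no annotated gene between them, on opposite strands, and the bases before their starts are shown because they are nearly the same while the signals of the pair moved differently. The sequences are the 110 bases before the RefSeq start (assembly GRCm38.p6), for Aldh1a1 at chr19:20601858-20601967 on the plus strand and for Aldh1a7 at chr19:20727557-20727666 on the minus strand. Capitals mark the positions at which the pair differs in an alignment without gaps.
Aldh1a1: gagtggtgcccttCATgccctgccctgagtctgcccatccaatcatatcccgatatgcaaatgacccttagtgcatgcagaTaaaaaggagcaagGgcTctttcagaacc
Aldh1a7: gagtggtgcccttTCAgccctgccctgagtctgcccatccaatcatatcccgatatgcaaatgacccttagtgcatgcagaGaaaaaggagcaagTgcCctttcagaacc
The pair has the same base at 104 of 110 positions (94.5%). In the next 140 bases upstream the same alignment without gaps holds 25 identical positions (17.9%). The length of 110 bases was set by hand and the share depends on it. No alignment with gaps was made, so where the likeness ends was not tested. Aldh1a1 has another annotated start further upstream, and its 110 bases share 31 positions (28.2%) with those printed for Aldh1a1.

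Promoter windows of 300 bases, from 250 bases before to 50 after a start, were found for 6 of the 9 members (14 windows), and Aldh1a3, Rdh10 and Crabp2 had none. The glucocorticoid receptor half-site AGAACA, searched on both strands, was in 3 of the 14 windows, those of Dhrs3 and Stra6, and in 19% of 32851 windows of all genes. The half-site of retinoic acid receptors, AGGTCA, was in 1 window, of Rarg, and in 16.3% of all windows. The full palindrome (AGAACA, any 3 bases, TGTTCT), which contains the first half-site, and AGGTCA repeated in the same direction after any 5 or any 2 bases, which contains the second, were in none of the 14 windows and in 0.00913% of all windows each. Neither Aldh1a1 window nor the Aldh1a7 window held any of these motifs. Only exact matches were counted and bases outside the windows were not searched, so nothing on receptor binding is read from this absence.

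Signals are given on the log2 scale after background correction and quantile normalization, as mean ± SD of 3 arrays. A probe was called detected on an array if its signal had a p under 0.05 against the negative control beads of that array, and 16317 probes (36.0%) detected on at least 3 of 6 arrays were tested with limma. Per array 15800 to 16523 probes were detected, and the arrays correlated at 0.974 to 0.994 within a group and at 0.958 to 0.978 between groups. Fkbp5, Per1 and Tsc22d3, known glucocorticoid targets, rose by 6.01, 2.47 and 2.49 on the log2 scale. All 8 adipocyte markers were detected on every array, from Adipoq at 14.38 to 14.44 down to Cebpa at 7.66 to 8.33. Of these Plin1, a lipid droplet protein, fell by 1.03 on the log2 scale (adjusted p = 0.0029 from limma) and the other 7 did not pass. The linear signal of all 8, summed after normalization, was 60359 to 62311 in vehicle and 66361 to 72748 in DEX, without overlap. This sum rests mostly on the brightest genes. Adipoq, Lpl and Cidec had log2 fold changes of -0.01, 0.18 and 0.49 (adjusted p = 0.983, 0.493 and 0.146 from limma). In the bead signals as deposited, the groups overlapped for Lpl (17086 to 19511 in vehicle, 16511 to 21438 in DEX) but not for Cidec. No rise of the set is therefore read from the sum. Also detected on every array were the 4 markers of preadipocytes and fibroblasts that it carries, Dlk1 among them at 13.53 to 14.03, so markers of fat cells and of their precursors were present together. The summed linear signal of these 4 was 17594 to 19678 in vehicle and 15646 to 20795 in DEX. This sum rests mostly on Dlk1 (log2 fold change -0.10, adjusted p = 0.792 from limma). Pdgfra had 0.63 (adjusted p = 0.0508), with all DEX arrays above all vehicle arrays in normalized signal. Thy1 and Col1a1 had -0.21 and 0.07 (adjusted p = 0.643 and 0.882). The part of either marker set in the results on retinoid genes was not tested. No macrophage marker (Adgre1, Ptprc, Csf1r) was detected on any array, and of the endothelial markers Pecam1 and Cdh5 were each detected on 1 array and Kdr on none. DEX raised 693 and lowered 416 of all tested probes (adjusted p under 0.05). Under median scaling, used instead of quantile normalization, the numbers were 587 and 667, and the median over all probes moved from -0.04 to -0.13 on the log2 scale.

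**Figure D1:**
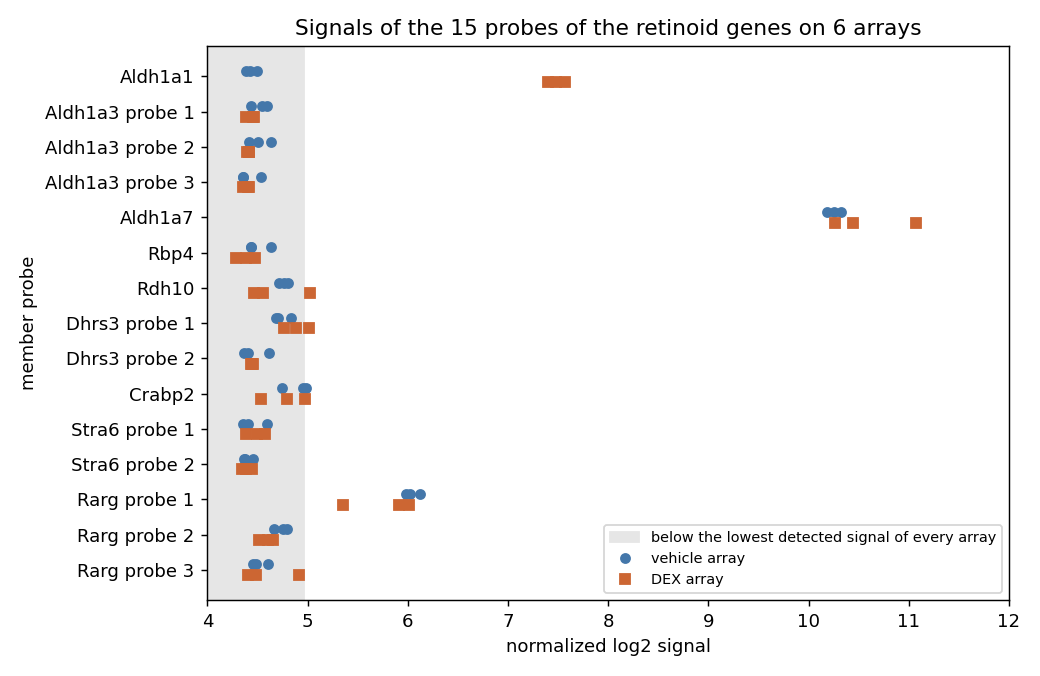
Normalized log2 signal (x axis) of the 15 probes of the 9 genes (y axis) on the 3 vehicle arrays (circles) and the 3 DEX arrays (squares), with shading below the lowest detected signal of every array. Aldh1a1 moves from the shaded range to above 7, Aldh1a7 stays above 10, and 12 of the 15 probes lie in or beside the shaded range in both groups.

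Of the retinaldehyde dehydrogenases, Aldh1a1 had signals of 4.50, 4.39 and 4.43 on the vehicle arrays and of 7.48, 7.40 and 7.56 on the DEX arrays. The groups were far apart, and every vehicle array lay in the background. In the bead signals as deposited the vehicle values of Aldh1a1 were 92.2, 82.6 and 88.3, with detection p-values from 0.351 to 0.716, and the DEX values were 258, 223 and 256. Aldh1a1 therefore rose from below detection to a clear but moderate signal. Its mean went from 4.44 ± 0.06 to 7.48 ± 0.08 (log2 fold change 3.04, standard error 0.14, 95% confidence interval 2.74 to 3.35, adjusted p = 3.18e-06 from limma). The vehicle SD is a spread of background signals, so the standard error and interval hold for this background treatment only. Since no vehicle array detected Aldh1a1, the fold is given as a bound. Aldh1a1 was at least 5.52-fold higher in DEX than the lowest detected signal on the vehicle arrays. This bound too holds for this background treatment only, and the change was smaller under others given below. Of the 3 tested member probes 1 was called as higher, while 4.25% of all tested probes were, and no member was lower (0 also at an unadjusted p under 0.05 from limma), against 2.55% of all tested probes, or 6.8% in either direction. Groups without overlap were found for the same 1 of 3 member probes and for 26.4% of all tested probes. Aldh1a1 passed the detection filter only through its 3 DEX arrays, so nothing is read from these counts, and with all probes tested its adjusted p was 9.02e-05. Without background correction the log2 fold change of Aldh1a1 was 1.53, with a larger background offset of 50 it was 1.93, and with the authors' own normalized values it was 1.72. The adjusted p stayed at 9.02e-05 or less under all 14 alternatives, so the size of the rise, not its call, depended on the treatment of background.

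Aldh1a7 encodes a cytosolic aldehyde dehydrogenase closely related to Aldh1a1. Its signals were 10.19, 10.33 and 10.26 in vehicle and 10.26, 10.45 and 11.07 in DEX, all detected. The groups overlapped, with DEX replicate 3 standing above the other 5 arrays. The log2 fold change of Aldh1a7 was 0.34 (standard error 0.21, 95% confidence interval -0.13 to 0.80, adjusted p = 0.411 from limma), and without DEX replicate 3 it was 0.10 (adjusted p = 0.735, in a range of 0.176 to 0.735 over the alternatives). A change of Aldh1a7 as large as that of Aldh1a1 lies outside this interval, but a rise of up to 0.80 on the log2 scale does not. The probe sequences were not compared here, so whether either probe also reads the other transcript was not tested.

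Aldh1a3, another enzyme that makes retinoic acid, was read by 3 probes, none of which was detected on any array. Their signals lay between 4.35 and 4.63 in vehicle and between 4.36 and 4.47 in DEX, with no call to be made. The remaining enzyme of this group, Aldh1a2, is no member, and its 2 probes were also detected on no array. Aldh1a1 was thus the 1 retinaldehyde dehydrogenase of these 3 with a detected signal, and had it in DEX only.

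**Figure D2:**
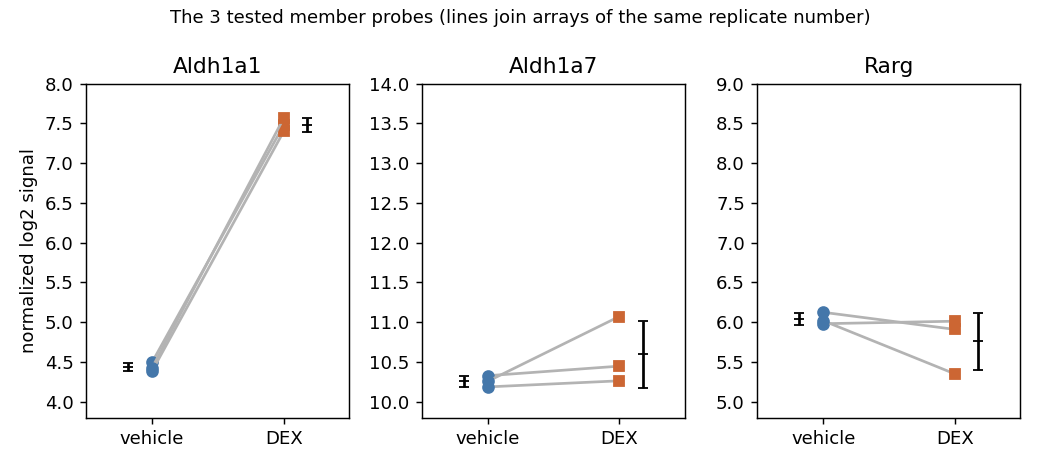
Normalized log2 signal (y axis, 3 panels of equal height in log2 units) of the tested probes of Aldh1a1, Aldh1a7 and Rarg in vehicle (circles) and DEX (squares), with lines joining arrays of the same replicate number and bars for mean ± SD (n = 3). The 3 lines of Aldh1a1 start from undetected vehicle signals of 4.39 to 4.50, while for Aldh1a7 and Rarg DEX replicate 3 lies apart from the other DEX arrays.

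Among the carriers and the receptor of retinol, Rbp4, also known as a hormone secreted by fat cells, had signals of 4.43, 4.63 and 4.44 in vehicle and of 4.29, 4.38 and 4.48 in DEX. None was detected, so Rbp4 was at background in these cells by its 1 probe. Stra6, the membrane receptor for RBP4, was read by 2 probes, both detected on no array, with signals from 4.35 to 4.60 over all 6 arrays. Crabp2, which delivers retinoic acid to its receptors, came close to detection on the vehicle arrays, at 4.75, 4.99 and 4.95 with detection p-values from 0.0577 to 0.114. On the DEX arrays Crabp2 was at 4.53, 4.97 and 4.80, and the groups overlapped. A change of these genes below the detection limit could not be measured at this signal.

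Rdh10, which makes retinaldehyde from retinol, was detected on 1 of 6 arrays, DEX replicate 3. Its signals were 4.81, 4.72 and 4.76 in vehicle and 4.47, 4.55 and 5.03 in DEX, so the DEX arrays lay on both sides of the vehicle arrays. Dhrs3, which turns retinaldehyde back into retinol and is itself known to be induced by retinoic acid, had 2 probes. The brighter probe of Dhrs3 was detected on DEX replicate 1 only, at 5.01, with 4.76 and 4.88 on the other DEX arrays and 4.71, 4.69 and 4.83 in vehicle. Its other probe was detected on no array, at 4.37 to 4.61. Neither gene could be tested under the detection filter. With all 45281 probes tested, no probe of the 6 untested genes passed, and the lowest adjusted p among their probes was 0.629 from limma, for Dhrs3.

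Rarg, the retinoic acid receptor gamma, was detected by 1 of its 3 probes, on all 6 arrays. That probe gave 5.98, 6.13 and 6.02 in vehicle and 6.01, 5.91 and 5.35 in DEX. The groups overlapped, and DEX replicate 3, the array on which Aldh1a7 was highest, was the lowest. The log2 fold change of Rarg was -0.28 (standard error 0.19, 95% confidence interval -0.71 to 0.14, adjusted p = 0.447 from limma), and without DEX replicate 3 it was -0.08 (adjusted p = 0.783, in a range of 0.246 to 0.783 over the alternatives). The other two probes of Rarg were detected on no array, at 4.40 to 4.91, so a statement on this receptor rests on 1 probe.

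The other genes of the pathway were taken from a list of 43 genes of retinoid transport, storage, oxidation, breakdown and reception. Of these 41 were on the array and 20 had a tested representative probe, the probe with the highest mean. Among these 20 genes limma called 1 higher and 4 lower (adjusted p under 0.05), beside 4.52% higher and 3.06% lower of 9144 tested genes. The groups did not overlap for 14 of the 20, and for 27.9% of all tested genes. The median log2 fold change of the 20 genes was -0.24, and that of all tested genes was -0.06. The 21 genes that could not be tested included Rara, Rarb, Lrat, which esterifies retinol for storage, Cyp26a1 and Cyp26b1. With the arrays paired by replicate number, Adh1 and Rxra were also called, so that 3 genes were higher. Rxra, Rxrb and Adh1, and below Hoxa5, Hoxb4 and Nrip1, were singled out after their values were seen.

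**Figure D3:**
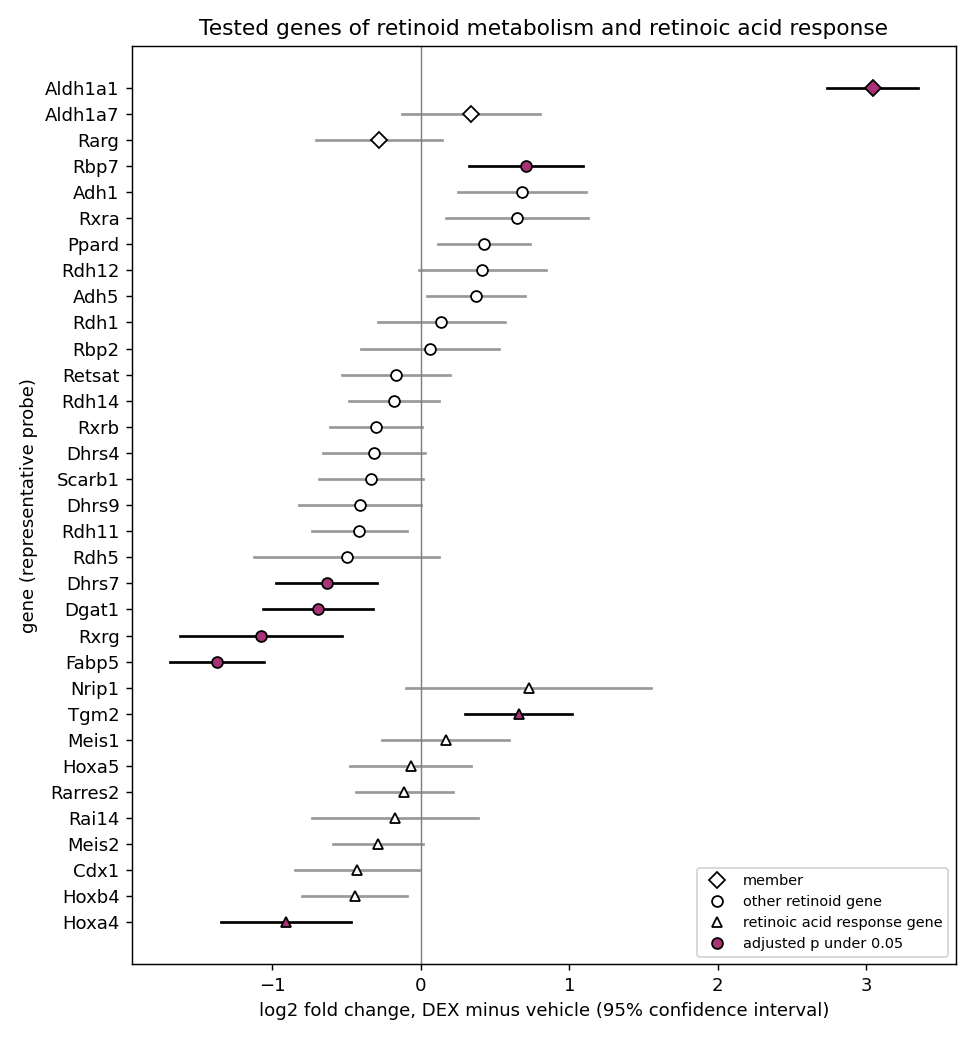
Log2 fold change, DEX minus vehicle, with its 95% confidence interval (x axis) for the tested members (diamonds), other retinoid genes (circles) and retinoic acid response genes (triangles), with filled symbols at an adjusted p under 0.05. Aldh1a1 at 3.04 lies beyond the interval of every other gene shown, which range from -1.37 (Fabp5) to 0.73 (Nrip1).

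Fabp5, which carries fatty acids and, in other cells, takes retinoic acid to PPAR delta, was the most changed of the 20. It had signals of 9.34, 9.42 and 9.44 in vehicle and of 8.13, 7.87 and 8.09 in DEX, and all DEX arrays lay below all vehicle arrays. The log2 fold change of Fabp5 was -1.37 (standard error 0.14, adjusted p = 3.83e-04 from limma), and its call held under all 14 alternatives. Another probe of Fabp5 was detected on no array. For Ppard, the receptor it serves, the log2 fold change was 0.43 (95% confidence interval 0.12 to 0.74, adjusted p = 0.105).

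Of the RXR family, the partners of Rarg on DNA, Rxrg passed the test and Rxra and Rxrb did not, and differences between them were not tested. Rxrg was at 6.13, 6.66 and 6.41 in vehicle and at 5.43, 5.73 and 4.80 in DEX, the last of these below detection. Each DEX array of Rxrg lay below each vehicle array. Rxrg fell by 1.08 on the log2 scale (standard error 0.24, adjusted p = 0.0279 from limma), and DEX replicate 3 was again the lowest. The call was lost without vehicle replicate 2 (adjusted p = 0.128) or vehicle replicate 3 (adjusted p = 0.0856) and when all probes were tested (adjusted p = 0.141), and over the alternatives the adjusted p was 0.00672 to 0.141. Without background correction the log2 fold change of Rxrg was -0.48. Rxra was at 7.64, 7.37 and 7.10 in vehicle and at 8.30, 8.13 and 7.61 in DEX, so the lowest DEX array lay just below the highest vehicle array. Its log2 fold change was 0.65, with an adjusted p of 0.112, which in the paired fit was 0.0183. For Rxrb the log2 fold change was -0.30 (adjusted p = 0.25).

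Retinol and its esters are handled by several of the other genes. Rbp7, a cellular retinol binding protein of fat and blood vessels, was detected on no vehicle array (4.60, 4.79 and 4.63) and on all DEX arrays (5.64, 5.08 and 5.41). With the background treatment used here, Rbp7 was at least 1.29-fold higher in DEX than the lowest detected signal on the vehicle arrays. This bound holds for that treatment only. The log2 fold change of Rbp7 was 0.71 (adjusted p = 0.0396 from limma), close to the detection limit. Rbp7 was tested only because the DEX arrays detected it, and with all probes tested it did not pass (adjusted p = 0.0964). Its call was lost without vehicle replicate 1, 2 or 3 (adjusted p = 0.118, 0.109 and 0.135) and without DEX replicate 1 or 3 (adjusted p = 0.078 and 0.0744), as well as without background correction (log2 fold change 0.27, adjusted p = 0.12), with an offset of 50 (adjusted p = 0.111) and with the authors' normalized values (adjusted p = 0.102), and its other probe was not detected. Over the alternatives its adjusted p was 0.0306 to 0.135. Dgat1, which esterifies retinol besides making triglycerides, was at 10.74, 10.52 and 10.45 in vehicle and at 10.11, 9.84 and 9.67 in DEX. The groups of Dgat1 did not overlap, and it fell by 0.69 on the log2 scale (adjusted p = 0.0364 from limma). The call of Dgat1 was lost without vehicle replicate 1, 2 or 3 (adjusted p = 0.121, 0.128 and 0.0804), without DEX replicate 2 or 3 (adjusted p = 0.113 and 0.0697) and when all probes were tested (adjusted p = 0.0783), with a range of 0.00765 to 0.128 over the alternatives. Retsat, a retinol saturase of fat cells, was the brightest of the 20, at 13.60 ± 0.07 in vehicle and 13.43 ± 0.24 in DEX (log2 fold change -0.17, 95% confidence interval -0.53 to 0.20, adjusted p = 0.624).

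Among dehydrogenases outside the set, Dhrs7, a short-chain dehydrogenase of the same superfamily as Dhrs3, was at 10.91, 11.12 and 11.30 in vehicle and at 10.46, 10.51 and 10.45 in DEX. All DEX arrays of Dhrs7 were lower, and it fell by 0.63 on the log2 scale (adjusted p = 0.0359 from limma). Its other 2 probes had log2 fold changes of -0.52 and -0.56, which did not pass (adjusted p = 0.192 and 0.0818). The call of Dhrs7 was lost without vehicle replicate 2 or 3 (adjusted p = 0.153 and 0.158) and without DEX replicate 1, 2 or 3 (adjusted p = 0.0616, 0.0971 and 0.058), and over the alternatives the adjusted p was 0.00735 to 0.158. Adh1, an alcohol dehydrogenase that oxidizes retinol, was at 6.60, 6.78 and 6.66 in vehicle and at 7.60, 7.55 and 6.94 in DEX. Its groups did not overlap. The log2 fold change of Adh1 was 0.68 (adjusted p = 0.0693, and 0.0342 in the paired fit), and its second probe had 0.60 (adjusted p = 0.0681). For Rdh11, a retinal reductase, the log2 fold change was -0.41 (95% confidence interval -0.74 to -0.09, adjusted p = 0.13).

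Retinoic acid response was read from 25 genes known as induced by retinoic acid in other cells, 3 of them members (Crabp2, Dhrs3 and Stra6). Of these 23 were on the array and 10 were tested, of which limma called 1 higher and 1 lower (adjusted p under 0.05), beside 4.52% and 3.06% of all tested genes. The median log2 fold change of the 10 genes was -0.14, and for 5 of them the groups did not overlap, beside 27.9% of all tested genes. Several well known targets could not be tested: Rarb, Cyp26b1, Crabp2, Stra6 and Lrat were detected on no array, and Cyp26a1 and Dhrs3 on 1 DEX array each.

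Tgm2, a transglutaminase, was at 9.74, 9.99 and 9.82 in vehicle and at 10.31, 10.49 and 10.73 in DEX. The groups of Tgm2 did not overlap, and it rose by 0.66 on the log2 scale (adjusted p = 0.0403 from limma). Its call was lost without vehicle replicate 1, 2 or 3 (adjusted p = 0.127, 0.101 and 0.139), without DEX replicate 2 or 3 (adjusted p = 0.109 and 0.0682), with median scaling (adjusted p = 0.092) and when all probes were tested (adjusted p = 0.0749), with a range of 0.0161 to 0.139 over the alternatives. Hoxa4, a homeobox factor, was at 6.64, 6.46 and 6.16 in vehicle and at 5.84, 5.27 and 5.42 in DEX. It fell by 0.91 on the log2 scale (adjusted p = 0.0229 from limma), while Hoxa5 and Hoxb4 had log2 fold changes of -0.07 and -0.45 (adjusted p = 0.875 and 0.133). The call of Hoxa4 was lost without vehicle replicate 1 or 2 (adjusted p = 0.0851 and 0.101), without DEX replicate 2 or 3 (adjusted p = 0.0955 and 0.0624) and when all probes were tested (adjusted p = 0.0941), with a range of 0.00264 to 0.101 over the alternatives, and without background correction its log2 fold change was -0.41. Rarres2, which encodes the adipokine chemerin, was the brightest gene of the list, at 13.77 ± 0.11 in vehicle and 13.66 ± 0.12 in DEX (log2 fold change -0.11, adjusted p = 0.726), while its dimmest probe had 0.57 (adjusted p = 0.122). Meis2 and Meis1, homeobox cofactors, had log2 fold changes of -0.29 and 0.17 (adjusted p = 0.263 and 0.679).

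**Figure D4:**
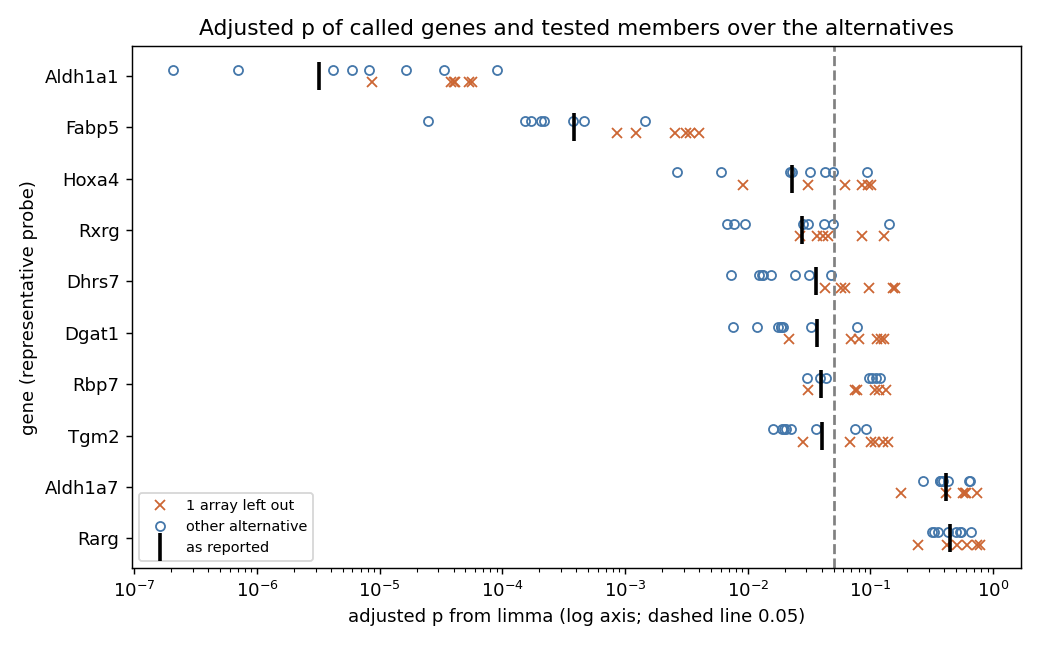
Adjusted p from limma (x axis, log scale, dashed line at 0.05) of the 8 called genes and the 2 tested members that were not called (y axis), as reported (bars), with 1 array left out (crosses) and under the other alternatives (circles). Aldh1a1 and Fabp5 stay left of the line in every setting, the other 6 called genes fall on both sides, and Aldh1a7 and Rarg stay right of it.

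The pattern of Aldh1a1 over the 6 arrays was set against that of 8896 tested genes, each centred on its own mean. Where the step between groups is large, such a ranking mostly finds genes with a step of like size. Sgk1, a serum- and glucocorticoid-regulated kinase, was the most like Aldh1a1, with a root mean square difference of 0.13 on the log2 scale. Trp53inp1, a p53-inducible nuclear protein, was next, with 0.18. The log2 fold changes of Sgk1 and Trp53inp1 were 3.03 and 2.92, and both were detected on all 3 vehicle arrays. Aldh1a1 was at background there, so this likeness holds for the background treatment used and was not computed under another.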

How the data were processed

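Labeled cRNA made from the total RNA of 6 samples was hybridized to MouseWG-6 BeadChip arrays. The authors deposited the raw intensity of each probe on each array, without background correction or normalization, and beside it a detection p-value against negative control beads. They also deposited intensity values pre-processed with lumi, and its options were not given in the sources used here. Here normexp, with control levels inferred from detection p-values and an offset of 16, removed background before quantile normalization and log2. Tests were two-sided in limma 3.58.1 (R 4.3.3), with Benjamini and Hochberg adjustment over 16317 tested probes. Folds of dim probes are understated because of the offset. Of the probes, 34885 carry 1 gene symbol, 18 several and 10378 none, and 1 listed name (Rbpr2) was matched by synonym. Members, lists and tests were chosen with earlier results of these data known. Named were all members, list genes that passed, up to 3 bright ones per list that did not, and the 2 genes most like each called member. On simulated data the test recovered 3 of 50 changes of 1.5 fold, 36 of 50 of 2 fold and 48 of 50 each of 3 and 4 fold. A gene that did not pass can therefore still have changed, above all by less than 2 fold. Deviations from group means correlated at 0.44, 0.30 and 0.25 between arrays of the same replicate number and at -0.37 to 0.10 between others, so the numbers were treated as pairs in an alternative. Because each group was centred on its own mean, positive values between some arrays force negative values between others. Whether the arrays are true pairs was not tested. Plots were made with Python 3.11.15 and matplotlib 3.10.9, and the number of arrays limits the precision.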

Additional observations from a re-analysis of the deposited data

How the results depend on the processing

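Of the members, 1 probe was higher and 0 were lower under each of the 15 alternatives tried, among them a change over 1.5 fold as a further condition, and Aldh1a7 and Rarg passed in none. Of the other retinoid genes, 0 were higher without the detection filter or with detection p under 0.01, 3 with the replicate block and 4 with array weights, and 0 to 2 when 1 array was left out. Of the same genes, 2 were lower without the detection filter, 5 without background correction, 6 with array weights and 1 to 3 when 1 array was left out. Of the retinoic acid response genes, 0 were higher with median scaling, 0 were higher and 0 lower without the detection filter, and 0 to 1 were higher and 0 to 1 lower when 1 array was left out. Over all probes, 1388 were higher and 1375 lower with array weights, 667 lower with median scaling and 847 lower with the replicate block, while 400 to 772 were higher and 131 to 516 lower when 1 array was left out. The lower probes were 255, 131 and 194 with vehicle replicate 1, 2 or 3 left out and 208 with DEX replicate 2 left out, and the higher probes were 400 and 458 with vehicle replicate 2 or 3 left out. Of the list genes tested, the block changed the calls of Adh1 and Rxra and of no other. The cause of these changes was not tested, apart from the smaller number of arrays or the larger number of probes that an alternative brings by construction. Genes below detection have no measured change.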

Other observations

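The whole aldehyde dehydrogenase family, chosen by symbol after the values were seen, holds 20 genes and 39 probes on the array, of which 20 probes of 14 genes were tested. Of these 20 probes 1 was higher at an adjusted p under 0.05 from limma, that of Aldh1a1, and 0 were lower, beside 4.25% higher and 2.55% lower of all tested probes. The median log2 fold change of the 20 probes was 0.13. At an unadjusted p under 0.05 there were 4 of 20, a share close to the 20.8% of all tested probes, with Aldh1l1, Aldh3a1 and Aldh3b2 beside Aldh1a1 (log2 fold change 0.72, 0.59 and 0.98, adjusted p = 0.126, 0.116 and 0.165). Aldh2, the mitochondrial enzyme of acetaldehyde oxidation, was the brightest, at 13.59 in vehicle and 13.64 in DEX.

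Of the retinol dehydrogenases and short-chain dehydrogenases named Rdh or Dhrs, chosen in the same way, 21 of 41 probes were tested, and 0 were higher and 1 was lower (Dhrs7), with a median log2 fold change of -0.32 and 7 probes at an unadjusted p under 0.05, beside the same 4.25%, 2.55% and 20.8% of all tested probes. Of the alcohol dehydrogenases named Adh, 4 of 12 probes were tested, 2 each of Adh1 and Adh5, and all 4 had a log2 fold change above 0 (0.37 to 0.68) and an unadjusted p under 0.05 from limma, while none passed after adjustment. Taken by symbol, the 41 and 12 probes also include those of Dhrs13os and Adh6-ps1, by name an opposite-strand transcript and a pseudogene, neither of them tested. Probes of 1 gene are not independent.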
